A study of Mus musculus with 12 samples.

Results

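The respiratory chain genes described here are the 85 protein-coding rows of 38087 genes whose symbols begin as those of complex I (Nduf with a subunit letter and number), complex II (Sdha to Sdhd), complex III (Uqcr), complex IV (Cox4 to Cox8) or complex V (Atp5). They comprised 37 complex I genes, 4 complex II genes, 8 complex III genes, 18 complex IV genes and 18 complex V genes. An 86th matching row, Atp5l2, is annotated as a pseudogene and was not counted. The symbol rule is not the same as the list of proteins in the enzymes. Ndufab1 and Cyc1 encode subunits that it does not catch, Ndufa4 carries a complex I name although its product is now assigned to complex IV, and Atp5s, Atp5sl and Atp5l-ps1 match the complex V pattern without encoding core parts of the ATP synthase.

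Messenger RNA came from colonic mucosa of mice of the genotypes Sgo1-/+ and WT, with 6 libraries each. Sgo1 encodes shugoshin 1, which protects the cohesion of sister chromatids at centromeres, and the series title and design text place the comparison within a study of chromosome instability in the colon. Azoxymethane, which induces tumours in the rodent colon, was given to mice of either genotype (4 mg/kg, 2 doses weekly, starting at 8 and ending at 12 weeks of age). Mucosa was taken at 9 months, so no carcinogen-free mucosa stands beside them. The labels number the samples and do not say that each is a separate mouse, so the p-values below reflect variation among samples that may be technical. They name no strain, and the Sgo1 allele is given only as -/+.

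Complexes I to IV pass electrons to oxygen, and complexes I, III and IV pump protons across the inner mitochondrial membrane. Complex V, the ATP synthase, uses the proton gradient to make ATP. Complexes I, III, IV and V combine subunits encoded in the nucleus with a few encoded in mitochondrial DNA, among them the catalytic COX1 and COX2 of complex IV and cytochrome b of complex III. Complex II is encoded in the nucleus alone. In the colon, surface epithelial cells are known to oxidise butyrate in mitochondria as a main fuel.

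Among the 38087 genes with an Ensembl identifier, 0 were mitochondrially encoded, and rows without an identifier were not searched. Instead 3 nuclear rows that resemble such transcripts took a large part of each library. Gm13340 (chr2:22588103-22589647, minus strand, build mm10) matched mt-Co1 at 97.6% identity over 1545 bases, Gm13341 (chr2:22587291-22587962, minus strand) matched mt-Co2 at 95.9%, and Gm11410 (chr4:80003989-80005131, plus strand) matched mt-Cytb at 92.9%. Whether their counts came from the nuclear copies or from the mitochondrial genome was not tested. Their summed share of counts, called the mitochondrial-like share below, is the measure against which the 85 genes were set.

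Library totals over all rows ran from 5711553 to 10198304 counts. The mitochondrial-like share, taken over the rows with an Ensembl identifier, was 13.4%, 19.8%, 37.7%, 12.8%, 13.4% and 10.4% in Sgo1-/+ replicates 1 to 6, and 20.6%, 14.2%, 38.8%, 20.8%, 37.4% and 22.3% in WT replicates 1 to 6. It averaged 17.9% ± 10.2 in Sgo1-/+ and 25.7% ± 10.02 in WT (SD, n = 6 each), a difference of -7.77 percentage points (exact two-sided permutation p = 0.177 over 924 splits). With a library left out the difference ran from -11.7 points without Sgo1-/+ replicate 3 (exact permutation p = 0.0130, the only one of the 12 under 0.05) to -5.14 points without WT replicate 3 (exact permutation p = 0.374). Without all 3 libraries above 30% it was -5.52 points, with no test, since the share itself chose them. Those libraries, Sgo1-/+ replicate 3, WT replicate 3 and WT replicate 5, stood apart from the other 9, which lay between 10.4% and 22.3%, and they were also shallow, with 5711553 to 6746697 counts against 6589505 to 10198304 in the others. Sgol1, the files' name for Sgo1, had 1.83, 2.37 and 2.76 CPM (counts scaled to a common library size; lowest, median, highest) in Sgo1-/+ against 1.48, 3.49 and 6.77 CPM in WT, and did not pass the test (log2 change -0.67 ± 0.31 SE, edgeR adjusted p = 0.517), so it does not separate the labelled genotypes. Epithelial markers summed to 15877 to 26956.5 CPM in Sgo1-/+ and 14989.7 to 25872.5 CPM in WT, with 8 of 8 genes detected.

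Of the 85 genes, 77 had enough counts to be tested and 8 did not. The subunits that every cell type uses dominated. Per transcript length, in CPM per kilobase with CPM taken over the counts outside the 3 mitochondrial-like rows, the highest medians over 12 libraries were 838 for Cox4i1, 716 for Cox8a, 642 for Cox6a1 and 625 for Cox6c, all nuclear-encoded subunits of complex IV that surround its catalytic core. Atp5b, the catalytic beta subunit of the ATP synthase, followed at 623, and Uqcrh, the hinge protein of complex III, at 606. The range over libraries was 628 to 955 for Cox4i1 and 362 to 751 for Atp5b, so that neighbours in this order overlapped. Complex I genes lay lower on the same scale, led by Ndufa6 at 277 and Ndufb9 at 266, with Ndufs1, its largest core subunit, at 48.6. The lowest tested genes were Atp5g2 at 4.15 and Atp5s at 4.11.

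Tissue-restricted isoforms, and Ndufa4l2 listed with them, were nearly silent, with an exception. Cox4i2, Cox6a2, Cox7b2, Cox8b and Ndufa4l2 averaged under 1 count per library, Cox6b2, a testis isoform, averaged 3.72 counts with at most 8 in a library, and Cox8c was listed at 0 in every library. With Atp5l-ps1 these are the 8 genes not tested. Cox7a1, known as the heart and muscle isoform of a complex IV subunit, was present at 76.3 CPM per kilobase. That lay above the ubiquitous Cox7c at 57.9, but below Cox7a2 at 246 and Cox7a2l at 161. Cox7a1 had 20.3, 25.4 and 33.0 CPM in Sgo1-/+ (lowest, median, highest) against 17.7, 24.6 and 30.6 CPM in WT, so the genotypes overlapped. Markers of skeletal muscle summed to 3.46 to 6.01 CPM in Sgo1-/+ and 3.62 to 17.2 CPM in WT, and those of smooth muscle to 14.998 to 32.0 CPM in Sgo1-/+ and 14.5 to 24.8 CPM in WT. Their part in the Cox7a1 level was not tested.

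**Figure D1:**
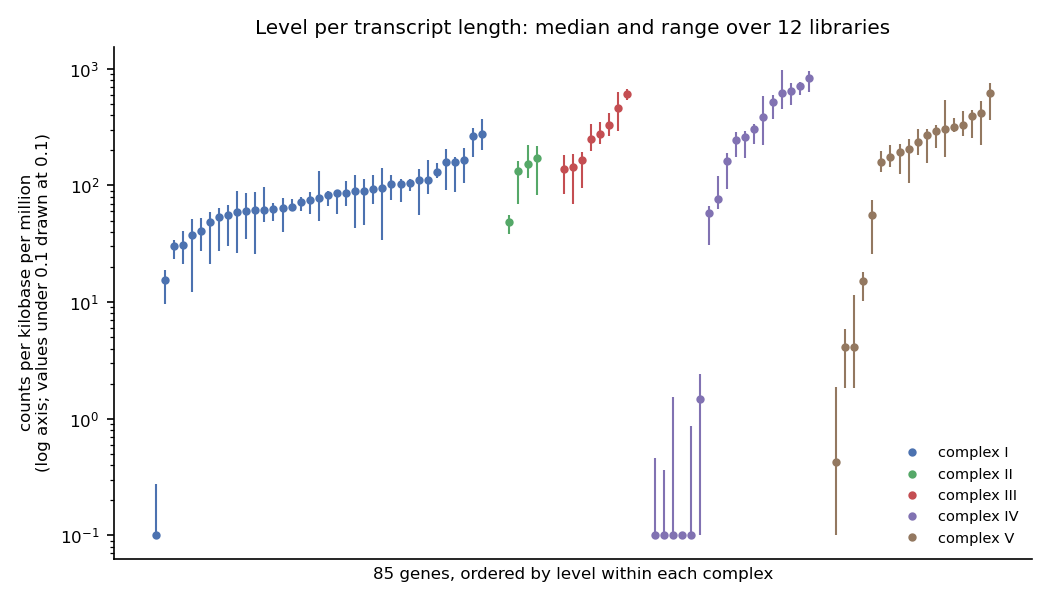
Level of each of the 85 genes per transcript length, in CPM per kilobase over the counts outside the 3 mitochondrial-like rows, on a log axis. Points are medians and lines the range over 12 libraries. Complex IV holds both the highest gene (Cox4i1, 838) and most of the silent isoforms, while most complex I genes lie between 30.4 and 277.

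The 3 subunit c genes showed how far near-identical copies limit the counts. Subunit c forms the rotor ring of the ATP synthase and is made as the same mature protein from Atp5g1, Atp5g2 and Atp5g3. On the same length scale Atp5g3 was highest with 305, Atp5g1 had 176 and Atp5g2 4.15. The Atp5g2 transcript, however, is 100% identical to Gm10175 and Gm10231 over its whole length, and its copies held 95.8% of the counts of the gene and its copies together, so this low level is uncertain. In all 20 of the 85 genes had a copy at 90% identity or more over at least 50% of the transcript, and 73.0% of the combined counts of Atp5l (subunit g) lay in its copies, mainly Gm10221. For Cox7c and Ndufs3 it was 15.1% and 15.8%, and for the rest of the tested genes with copies at most 2.47%.

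Promoters of the family are known for binding sites of NRF1 and of ETS-family factors such as GABP. RefSeq windows (assembly GRCm38.p6, from 250 bases before to 50 bases after the start) were matched for 66 of the 85 genes. The core motif GCGCATGC of NRF1, read on both strands, was found in windows of 10 of the 66 genes, 15.2%. It was found for 5.89% of 9324 tested genes with a window and 3.05% of all 27025 genes with a window. The ETS motif CCGGAAGT, read on both strands, was found in windows of 5 of the 66 genes, 7.58%, against 8.70% of tested genes and 4.31% of all genes with a window. No printed stretch holds both motifs, but the full window of Uqcr11 also has the NRF1 motif, not within the bases shown. The 150 bases before the start are shown for 3 genes that each hold a motif there, whereas 14 of the 66 genes have either motif in their windows. Of the 3, Sdhb was lower and Uqcr11 and Atp5k were higher in libraries rich in mitochondrial-like counts. Motif letters are in capitals, 5′ to 3′ on the gene's strand.
Sdhb, chr4:140961121-140961270, plus strand: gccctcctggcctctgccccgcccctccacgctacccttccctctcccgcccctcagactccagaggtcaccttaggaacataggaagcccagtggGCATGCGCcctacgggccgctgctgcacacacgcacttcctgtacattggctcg
Uqcr11, chr10:80406822-80406971, minus strand: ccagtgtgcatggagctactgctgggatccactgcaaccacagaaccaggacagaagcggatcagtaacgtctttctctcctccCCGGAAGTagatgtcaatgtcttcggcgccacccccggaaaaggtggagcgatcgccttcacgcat
Atp5k, chr5:108434400-108434549, minus strand: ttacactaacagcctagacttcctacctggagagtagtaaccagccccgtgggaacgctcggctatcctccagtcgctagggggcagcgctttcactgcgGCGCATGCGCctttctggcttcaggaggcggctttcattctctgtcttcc
Sdhb, the iron-sulfur subunit of complex II, has the NRF1 motif on the reverse strand, beginning 54 bases before the start. Uqcr11, a small subunit of complex III, has the ETS motif 66 bases before the start. Atp5k, subunit e of the ATP synthase, has the NRF1 motif on both strands, 50 and 48 bases before the start, as an overlapping palindrome. Motifs occurred in windows of genes that moved in either direction: of 18 genes lower with the share, 3 had the NRF1 motif, and of 8 higher with it, 2 had it. Such letter matches are a description and do not show binding.

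The genotype comparison asked whether the Sgo1-/+ mucosa expressed the respiratory chain at another level than WT mucosa. None of the 77 tested genes passed at an adjusted p of 0.05 in edgeR's quasi-likelihood test. The background was 0.0% of 13889 genes called, and DESeq2 called 0 of the 77 as well, with 17 genes higher and 13 lower among all genes. At an unadjusted p under 0.05 edgeR gave 1 of the 77, Atp5g2, against 9.65% of all genes: 1 was higher (4.56% of all genes) and 0 were lower (5.08% of all genes). Fitted log2 changes were positive for 30 and negative for 47 genes with a median of -0.017, against -0.0056 for all tested genes, and SEs ran from 0.081 to 0.33. Apart from Atp5g2, the changes lay between -0.25 (Uqcrb) and 0.23 (Ndufa9). With 2 SE to either side all 76 intervals lay between -0.57 and 0.72. Those ends are not a limit of detection, since Atp5g2, with a log2 change of 1.11, did not pass the adjusted threshold either. Scaled by total counts alone, all 77 changes were positive with a median of 0.30, and the median of all genes was 0.31, so the sign of a small change rests on the scaling. Total counts include the 3 mitochondrial-like rows, whose mean share was lower in Sgo1-/+, so part of this shift is built in.

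Values by library show the overlap. Cox4i1, a regulatory subunit of complex IV, had 406, 448 and 482 CPM (lowest, median, highest) in Sgo1-/+ against 421, 506 and 613 CPM in WT, a log2 change of -0.23 ± 0.11 SE (edgeR adjusted p = 0.519). Uqcrb, a ubiquinone-binding subunit of complex III, had 149, 162 and 233 CPM in Sgo1-/+ against 139.8, 213 and 249.2 CPM in WT, a log2 change of -0.25 ± 0.15 SE. Ranges of the genotypes overlapped for both genes. Uqcrh had 213, 241 and 278 CPM in Sgo1-/+ and 239, 262 and 325 CPM in WT. Ndufv3, an accessory subunit of the NADH-oxidising module of complex I, had 69.9, 77.0 and 85.05 CPM in Sgo1-/+ and 78.7, 87.4 and 99.6 CPM in WT, and Ndufa2 had 27.7, 40.4 and 48.6 CPM in Sgo1-/+ and 36.1, 44.9 and 60.0 CPM in WT. Their log2 changes of -0.17, -0.16 and -0.23 had adjusted p of 0.609, 0.564 and 0.668 in the same fit, and all 3 turned positive when scaled by total counts alone.

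For other named subunits the means of the genotypes differed by less than the SD within WT. Sdha, the flavoprotein of complex II that oxidises succinate, averaged 267 ± 39.1 CPM in Sgo1-/+ and 281 ± 63.6 CPM in WT (SD, n = 6 each), with log2 change -0.07 ± 0.16 SE. Sdhd, a membrane anchor of complex II, averaged 156 ± 29.7 CPM in Sgo1-/+ and 159 ± 34.4 CPM in WT. Atp5a1, the alpha subunit of the ATP synthase, averaged 765 ± 116 CPM in Sgo1-/+ and 709 ± 144 CPM in WT, and Cox5b, a zinc-binding subunit of complex IV, averaged 194 ± 11.3 CPM in Sgo1-/+ and 199.9 ± 13.1 CPM in WT. Uqcrfs1, the Rieske iron-sulfur protein of complex III, averaged 137 ± 25.0 CPM in Sgo1-/+ and 138 ± 31.9 CPM in WT. Ndufs1 had the widest gap of the core complex I genes, with 100.5 ± 8.39 CPM in Sgo1-/+ and 86.7 ± 20.7 CPM in WT, and a log2 change of 0.21 ± 0.15 SE (edgeR adjusted p = 0.668).

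Atp5g2 had the smallest p of the family and stood on few counts. It had 1.37, 2.20 and 3.801 CPM (lowest, median, highest) in Sgo1-/+ against 0.718, 1.02 and 1.501 CPM in WT, with at most 37.2 counts in a library. The log2 change was 1.11 ± 0.33 SE (edgeR adjusted p = 0.443), and 0.92 to 1.24 when each library was left out. Of its identical copies, Gm10175 averaged 28.04 ± 4.71 CPM in Sgo1-/+ and 26.3 ± 4.89 CPM in WT, with log2 change 0.09 ± 0.15 SE. Gm10231 averaged 14.7 ± 4.28 CPM in Sgo1-/+ and 11.3 ± 4.78 CPM in WT, with log2 change 0.38 ± 0.27 SE, and neither copy passed the test (edgeR adjusted p = 0.855 and 0.665). Summed over Atp5g2, Gm10175 and Gm10231 the level was 45.1 ± 8.52 CPM in Sgo1-/+ and 38.7 ± 8.37 CPM in WT (exact two-sided permutation p = 0.203, n = 6 each).

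**Figure D2:**
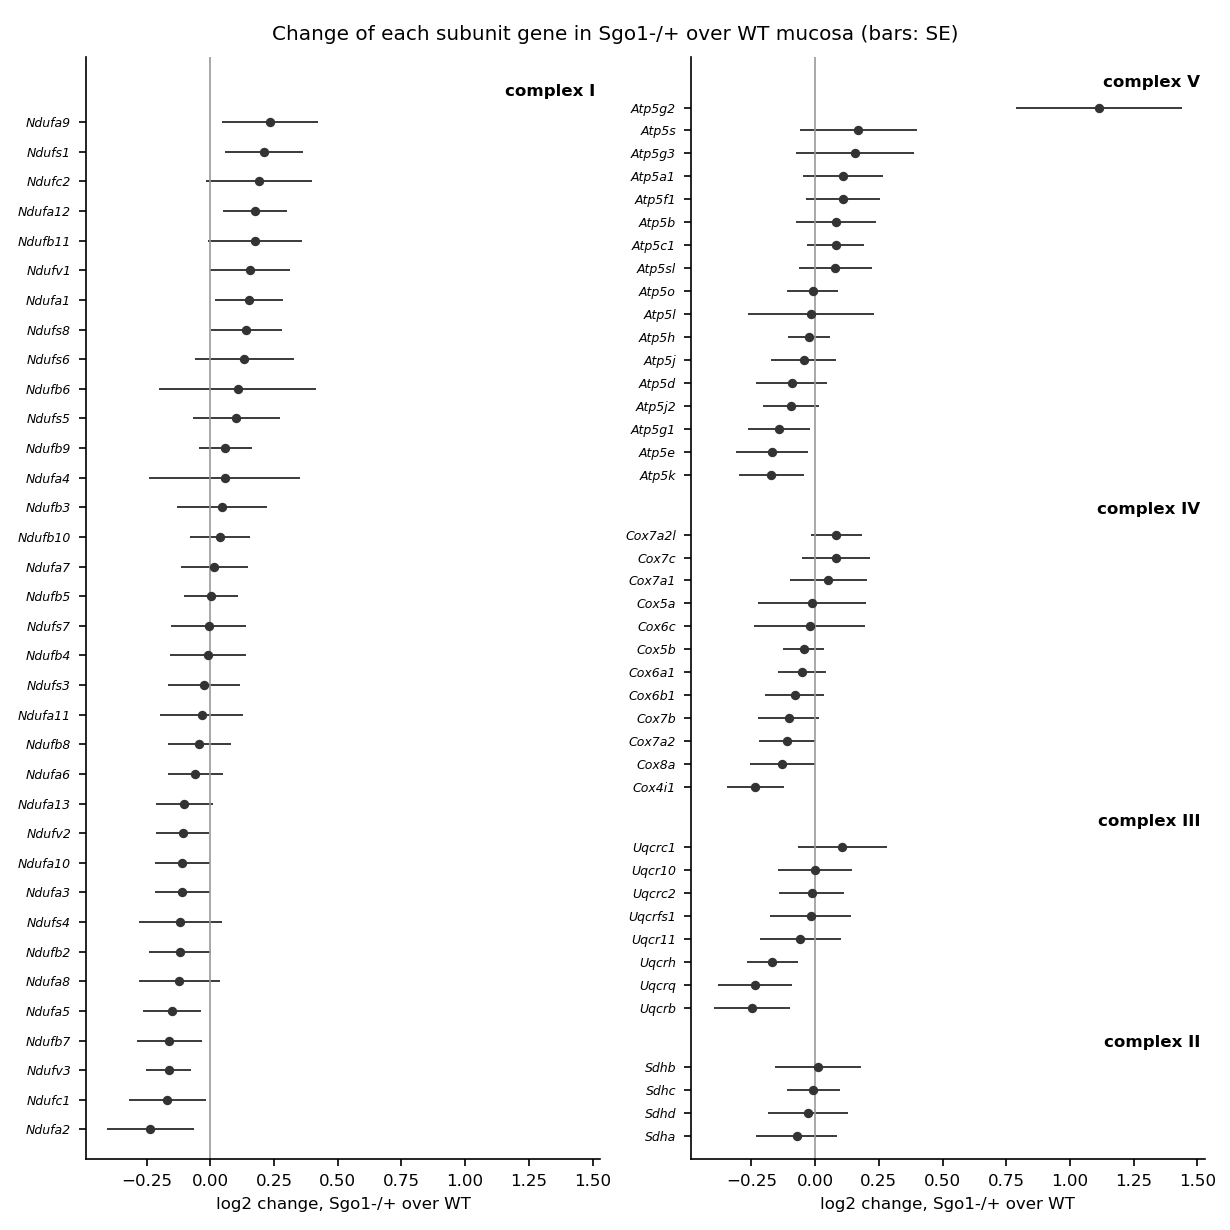
Fitted log2 change, Sgo1-/+ over WT, for 76 of the 77 tested genes, by complex, with bars of 1 SE. None passed the adjusted threshold, and all but Atp5g2 (1.11) lie between -0.25 and 0.23.

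Together the 85 genes made up 1.10%, 1.03% and 0.921% of the counts outside the 3 mitochondrial-like rows in the libraries rich in those rows (Sgo1-/+ replicate 3, WT replicate 3 and WT replicate 5), against 1.26% to 1.53% with a median of 1.38% in the other 9. The ranges did not overlap. Each complex showed the same order when summed: complex V took 0.336%, 0.308% and 0.2996% in those 3 libraries against 0.418% to 0.554% in the other 9, and complex II 0.0689%, 0.0642% and 0.0561% against 0.0872% to 0.109%. Complex I came closest to overlapping, with 0.258%, 0.231% and 0.202% against 0.264% to 0.331%, and complex IV had 0.295%, 0.288% and 0.239% against 0.315% to 0.345%. By genotype the family's share was 1.37% ± 0.149 in Sgo1-/+ and 1.22% ± 0.201 in WT (SD, n = 6 each). None of these shares carries the TMM factors that adjust library sizes for CPM. Those factors were lower in Sgo1-/+ replicate 3, WT replicate 3 and WT replicate 5 (0.749, 0.626 and 0.696) than in the other 9 (0.924 to 1.30). They apply to library sizes that include the 3 mitochondrial-like rows, unlike the shares, so part of that gap is built in. Without such scaling on their own base, the shares do not separate a fall of the family from a fall of most genes.

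**Figure D3:**
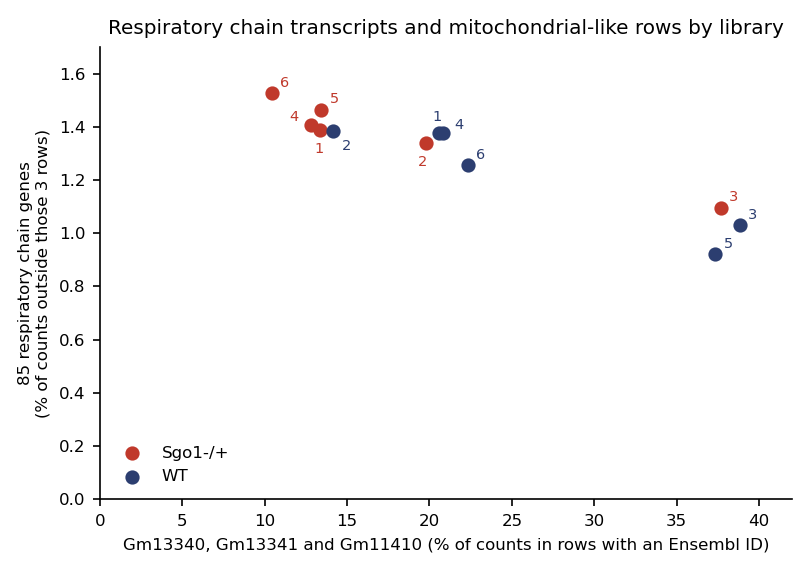
Share of the 85 genes in the counts outside the 3 mitochondrial-like rows (vertical, %) against the share of Gm13340, Gm13341 and Gm11410 in the counts of rows with an Ensembl identifier (horizontal, %), 1 point per library, numbered by replicate. The 3 libraries above 30% on the horizontal axis lie at 0.921% to 1.10%, below the 1.26% to 1.53% of the other 9. Shares are not TMM-scaled, and genes outside the family are not drawn.

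Gene by gene the family split. In a fit with genotype and the mitochondrial-like share as terms, 31 of 77 genes passed at an adjusted p of 0.05, or 40.3%, against 30.2% of all 13889 genes. Of these, 22 were lower with a higher share (28.6% of the 77, against 13.7% of all genes) and 9 were higher (11.7%, against 16.5% of all genes). Values of this fit are log2 changes per 10 percentage points of share; they ran from -0.56 (Ndufb6) to 0.31 (Cox6c) with a median of -0.033, against -0.012 for all genes. In 20 genes the 3 share-rich libraries all lay below the other 9 (background 8.91% of genes), and in 2 all above (background 10.2%). The result rests on those libraries. Without all 3, edgeR called 0 of 77 (0.112% of all genes; 4 genes higher and 0 lower at an unadjusted p under 0.05), and the median change of the 77 was 0.06, with 46 positive and 31 negative. Leaving out a single library gave 16 calls without Sgo1-/+ replicate 3 (14 lower, 2 higher), 20 without WT replicate 3 (2 higher), and 4, 5 and 5 higher calls without WT replicate 2, Sgo1-/+ replicate 1 and Sgo1-/+ replicate 4. Scaled by total counts alone, all 77 fitted changes were negative and 70 genes were called lower, with the median of all genes at -0.34. Total counts include the 3 mitochondrial-like rows, so a higher share lowers every other gene on that scale and part of this direction is built in. A call of higher in the main fit is relative to other genes in the library.

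In complex I, lower core genes included Ndufv1, which binds FMN and NADH, Ndufs3 of the quinone module, and Ndufs8, which carries iron-sulfur clusters. Ndufv1 had 54.5, 60.0 and 51.5 CPM in Sgo1-/+ replicate 3, WT replicate 3 and WT replicate 5, against 63.8, 82.1 and 99.1 CPM (lowest, median, highest) in the other 9 libraries. The 3 lay below all others, with a change of -0.25 ± 0.05 SE per 10 points (edgeR adjusted p = 0.00453). Ndufs1 had 100.2, 90.3 and 49.4 CPM in the same libraries against 83.7, 98.0 and 111 CPM in the others and was not called (-0.095 ± 0.08 SE).

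Among 29 accessory genes of complex I by symbol, 6 were lower, 4 higher and 19 not called, with a median change of 0.0022. Ndufb6, of the membrane arm, had 8.73, 9.51 and 7.16 CPM in the 3 share-rich libraries against 13.6, 19.6 and 28.9 CPM (lowest, median, highest) in the other 9. Ndufa4, counted here by its symbol although its product is now assigned to complex IV, had 18.8, 20.3 and 27.1 CPM against 33.6, 46.5 and 71.5 CPM. These were the steepest declines of the family, -0.56 ± 0.10 and -0.55 ± 0.10 SE per 10 points (edgeR adjusted p = 0.00179 and 0.00114). Ndufa9, Ndufb8, Ndufb11 and Ndufc2 were the other lower genes. The higher ones were Ndufa3, Ndufa10, Ndufb7 and Ndufc1; Ndufc1, for example, had 32.0, 37.8 and 38.5 CPM in the share-rich libraries against 20.7, 25.9 and 33.0 CPM in the others, which overlapped. Whether core and accessory genes differ was not tested.

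In complex II, Sdha and Sdhb were lower, and Sdhc and Sdhd, the membrane anchors, were not called. Sdha had 195, 231 and 182 CPM in the share-rich libraries (Sgo1-/+ 3, WT 3, WT 5) against 265, 282 and 337 CPM in the other 9, with no overlap. The change was -0.26 ± 0.05 SE per 10 points (edgeR adjusted p = 0.00253). Sdhb had 114, 111 and 84.4 CPM against 121, 150.4 and 181 CPM, a change of -0.24 ± 0.07 SE (adjusted p = 0.0141).

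In complex III the large core proteins and some small subunits went opposite ways. Uqcrc1 and Uqcrc2, the large core proteins, were lower. Uqcrc1 had 121, 113 and 117 CPM in the share-rich libraries against 144, 188 and 213 CPM in the other 9, and its change of -0.31 ± 0.05 SE had the smallest adjusted p of the family (edgeR adjusted p = 0.000857). Uqcr10 and Uqcr11, small membrane subunits, were higher. Uqcr11 had 123, 118 and 95.3 CPM against 61.0, 82.9 and 90.5 CPM, and was, with Ndufa3, a gene whose share-rich libraries all lay above the rest. Its change was 0.25 ± 0.05 SE (adjusted p = 0.00274), and the adjusted p without Sgo1-/+ replicate 3 was 0.0577. Uqcrfs1 was not called at -0.18 ± 0.07 SE (adjusted p = 0.0685), nor were Uqcrb, Uqcrh and Uqcrq.

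**Figure D4:**
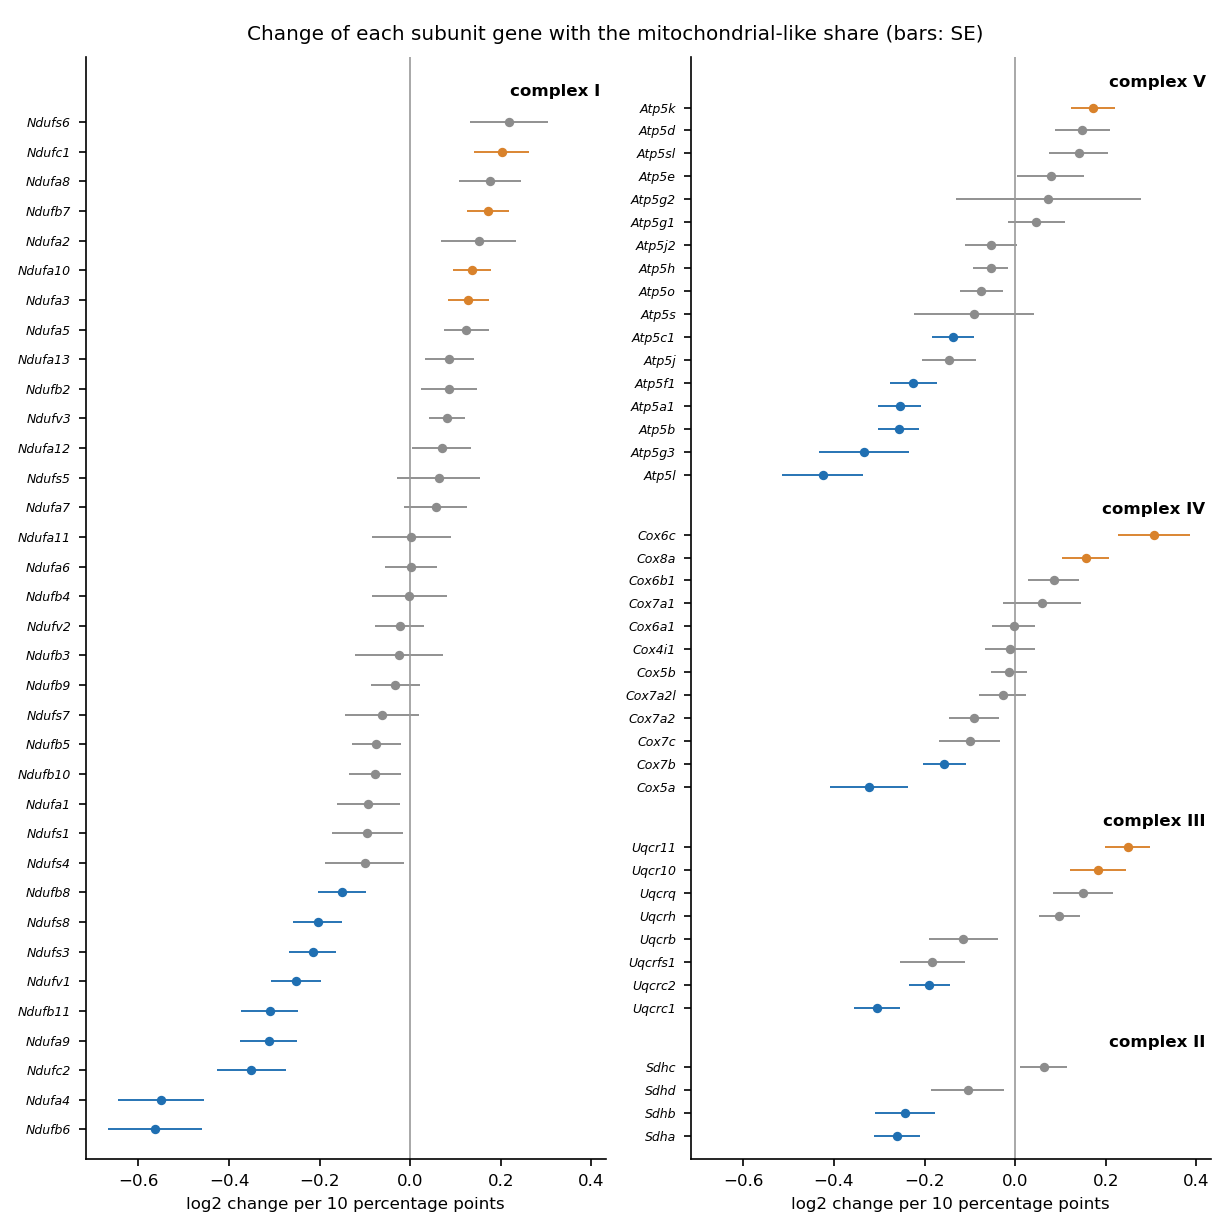
Fitted log2 change per 10 percentage points of mitochondrial-like share for 76 of the 77 tested genes, by complex, with bars of 1 SE. Blue marks 21 genes called lower and orange 9 called higher; Ndufb6 (-0.56) and Cox6c (0.31) are the extremes.

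In complex IV the abundant subunits mostly did not pass. The 12 tested genes are those with a Cox symbol and leave out Ndufa4, which was lower. Of the 12, Cox5a and Cox7b were lower, Cox6c and Cox8a were higher and 8 were not called. Among the 8 were Cox4i1 (-0.011 ± 0.06 SE) and Cox5b (-0.013 ± 0.04 SE). Cox5b, for instance, had 193, 208 and 177 CPM in the share-rich libraries against 172, 201 and 215 CPM in the other 9. Cox5a had 119, 143 and 152 CPM against 169.8, 228 and 309 CPM, a change of -0.32 ± 0.09 SE (edgeR adjusted p = 0.0129, and 0.116 without Sgo1-/+ replicate 3).

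The rises within complex IV were uneven between the 3 libraries. Cox6c had 406 and 409 CPM in Sgo1-/+ replicate 3 and WT replicate 3 but 205 CPM in WT replicate 5, against 180.1, 242 and 297 CPM (lowest, median, highest) in the other 9. So WT replicate 5 did not share the high level. The change was 0.31 ± 0.08 SE per 10 points (edgeR adjusted p = 0.0118), with 0.0664 without WT replicate 3 and 0.137 without Sgo1-/+ replicate 3. Cox8a had 342, 391 and 300.1 CPM in the share-rich libraries against 234, 290.2 and 328 CPM, and its adjusted p of 0.0366 rose above 0.05 when any of 8 libraries was left out (WT replicates 2 and 3 and every Sgo1-/+ replicate; 0.0553 to 0.144).

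In complex V, 3 of the 5 genes for the catalytic F1 head were lower and the other two were not called. Atp5a1, Atp5b and Atp5c1 (alpha, beta and gamma), with Atp5f1 of the stalk, Atp5g3 and Atp5l, were lower, Atp5k was higher and 10 of 17 genes were not called. Atp5b (ENSMUSG00000025393, chr10:128083273-128090391, plus strand, mm10) had 591, 677 and 627 CPM in Sgo1-/+ replicate 3, WT replicate 3 and WT replicate 5, against 846, 946 and 993 CPM in the other 9. The 3 lay below all others, with a change of -0.26 ± 0.04 SE per 10 points (edgeR adjusted p = 0.00122). Atp5a1 had 552, 589.6 and 495 CPM against 692, 795 and 899 CPM, a change of -0.25 ± 0.05 SE (adjusted p = 0.00184).

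Among the subunit c genes, Atp5g3 alone passed. It had 113, 123 and 142 CPM in the share-rich libraries against 149, 167 and 283 CPM in the other 9, a change of -0.33 ± 0.10 SE (edgeR adjusted p = 0.0221, with 0.0604 without WT replicate 3 and 0.159 without Sgo1-/+ replicate 3). Atp5g1 (0.047 ± 0.06 SE) and Atp5g2 (0.074 ± 0.20 SE) were not called. Atp5l fell by 0.43 ± 0.09 SE per 10 points on the log2 scale, with 12.0, 13.8 and 12.7 CPM against 18.4, 24.3 and 34.9 CPM, whereas its copy Gm10221 had 56.5 to 62.0 CPM against 46.0 to 85.4 CPM and did not change detectably (-0.0068 ± 0.08 SE). How reads were divided between them was not tested. Atp5k had 111, 124 and 100.3 CPM against 74.1, 87.9 and 102 CPM, a change of 0.17 ± 0.05 SE (adjusted p = 0.0167, with 0.0617, 0.0671 and 0.127 without WT replicate 2, WT replicate 3 and Sgo1-/+ replicate 3).

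**Figure D5:**
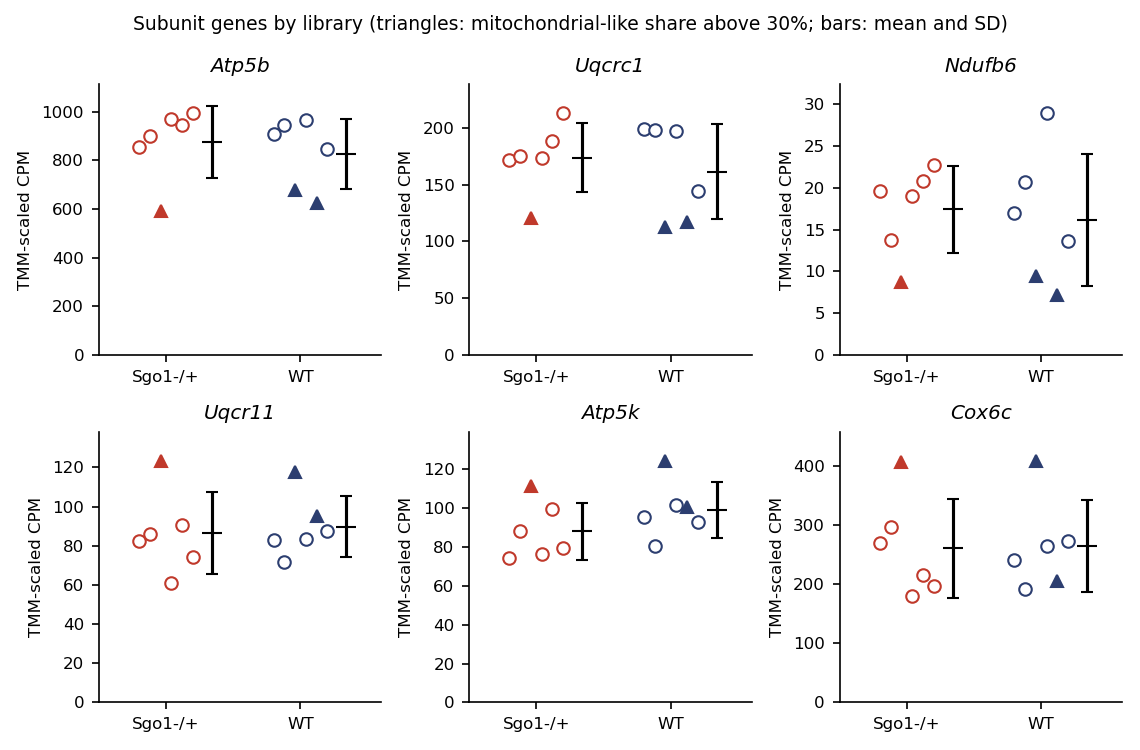
TMM-scaled CPM of 6 genes in each library, Sgo1-/+ left of WT, with mean and SD beside each group; filled triangles are the 3 libraries with a mitochondrial-like share above 30%. For Atp5b, Uqcrc1 and Ndufb6 the triangles lie below every circle, for Uqcr11 they lie above every circle, and for Cox6c 1 of the 3 lies among the circles.

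The genes that moved in either direction had transcripts of different length. The 22 lower genes had a median principal transcript of 1094 bases and a median GC content of 49.8%, the 9 higher genes 515 bases and 53.9%, and the 46 genes not called 751.5 bases and 52.8%. Across the 77 genes, Spearman's rho between the change per 10 points and transcript length was -0.38 (Pearson's r -0.22) and with GC content 0.38. With level per length rho was 0.07 and with the number of copies 0.0041. No value over all tested genes stands beside them. These correlations are across genes measured in the same 12 libraries, which are not independent, and are given as a description. The part of length, GC content or RNA quality in the result was not tested. Epithelial markers summed to 14989.7 to 17507 CPM in the 3 share-rich libraries and 15919 to 26956.5 CPM in the other 9, with 1 of 8 markers called lower and 0 higher. In bulk mucosa, fewer cells of a type and less RNA per cell cannot be told apart. Smooth muscle markers summed to 20.9 to 24.8 CPM in the 3 libraries against 14.5 to 32.0 CPM, with 1 of 4 tested called higher, and skeletal muscle markers to 5.29 to 17.2 CPM against 3.46 to 7.61 CPM, with the 1 tested called higher. B and plasma cell, T cell, macrophage and adipocyte markers gave 0 calls, and the brown fat markers Ucp1 and Cidea summed to at most 1.38 CPM. The part of cell composition was not tested.

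Among libraries whose column headers carry no suffix, 8 in all and including the 3 share-rich ones, 17 genes were called lower (10.3% of all genes were) and 6 higher (13.2% of all genes). Among the 4 with the suffix (WT replicates 1 and 6, Sgo1-/+ replicates 5 and 6), whose meaning is not stated, edgeR called 0, with 0 at an unadjusted p under 0.05. That fit has 1 residual degree of freedom and a share from 10.4% to 22.3%, so its lack of calls is not informative.

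Genes that serve the chain without being subunits were read in the same fit, in which 13.7% of all genes were lower and 16.5% higher. Of 18 tested tricarboxylic acid cycle genes, 8 (44.4%) were lower and 1 (5.56%) higher with the share (median -0.11 per 10 points). The higher gene was Idh3a, a subunit of mitochondrial isocitrate dehydrogenase, with 292 to 493 CPM in the share-rich libraries against 134 to 278 CPM in the other 9 and a change of 0.59 ± 0.06 SE (edgeR adjusted p = 4.55e-05). Of 33 assembly factors, 5 (15.2%) were lower and 3 (9.09%) higher, near or below the share of all genes; Cox11, a copper chaperone of complex IV, was higher at 0.45 ± 0.09 SE. Of 17 genes for coenzyme Q synthesis and cytochrome c, 3 (17.6%) were lower and 3 (17.6%) higher, including Coq3 at 0.40 ± 0.06 SE. Of 19 regulators of mitochondrial biogenesis, 4 (21.1%) were lower and 4 (21.1%) higher. Nrf1, whose product binds the motif above, had 33.8 to 41.6 CPM in the share-rich libraries against 18.6 to 28.6 CPM, with no overlap and a change of 0.38 ± 0.05 SE (adjusted p = 0.00024). Without the 3 share-rich libraries edgeR called 0 genes of these 4 lists (0.112% of all genes), with 3 tricarboxylic acid cycle genes, 3 assembly factors, 2 genes for coenzyme Q and cytochrome c and 6 regulators at an unadjusted p under 0.05.

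By genotype, 0 genes of those lists passed the adjusted threshold in edgeR and 1, Lyrm7, did in DESeq2 (adjusted p = 0.0464). The smallest p in each list belonged to Lyrm7, a complex III assembly factor, with 3.93 ± 2.82 CPM in Sgo1-/+ and 16.8 ± 17.2 CPM in WT (log2 change -2.12 ± 0.58 SE, edgeR adjusted p = 0.443), to Polg, the mitochondrial DNA polymerase, with 24.6 ± 3.14 CPM in Sgo1-/+ and 19.7 ± 2.73 CPM in WT (0.32 ± 0.12 SE), to Dlat of the pyruvate dehydrogenase complex with 49.4 ± 4.17 CPM in Sgo1-/+ and 40.8 ± 4.05 CPM in WT (0.27 ± 0.10 SE), and to Coq10b with 29.3 ± 5.24 CPM in Sgo1-/+ and 36.3 ± 8.66 CPM in WT (-0.31 ± 0.16 SE). Lyrm7 had 9.19 to 51.5 CPM in the 3 share-rich libraries, of which 2 are WT, against 0.925 to 14.1 CPM in the other 9, and the part of those libraries in its DESeq2 call was not tested. At an unadjusted p under 0.05, edgeR had 4.56% of all genes higher and 5.08% lower; 1 assembly factor was higher and 3 were lower, 1 biogenesis regulator and 1 tricarboxylic acid cycle gene were higher, and 0 genes of coenzyme Q synthesis passed.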

How the data were processed

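Colonic mucosa was extracted in Trizol, mRNA was purified with a kit and TruSeq V2 libraries were run on an Illumina MiSeq, per the labels' protocols. The submitters' processing notes list mm10 as genome build and DESeq as tool. Neither the aligner nor the counter, nor whether strand was used, is given in the sources used here, so genes that overlap on opposite strands are uncertain. The authors deposited a raw column of expected counts (69.6% of values above 0 are not whole) and a normalized log2 column, which was not used.

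Counts were rounded. The 505 rows without an Ensembl identifier (1.79% to 5.40% of counts) were left out, which left 38087 genes. Tests used edgeR 4.0.16 under R 4.3.3 (glmQLFit, glmQLFTest, TMM scaling, filterByExpr with a minimum count of 10 and total of 15, 13889 genes kept), once with genotype alone and once with genotype and the mitochondrial-like share. P-values were adjusted by Benjamini-Hochberg over all genes tested, with a threshold of 0.05. The SE is the absolute log2 change divided by the square root of F. CPM used TMM-scaled library sizes. Single values were compared by exact permutation. DESeq2 1.42.0 and limma-voom (limma 3.58.1) were alternatives, beside other scaling, filters, a replicate block and libraries left out. The fit was tested on simulated data. Levels per length used the principal GENCODE M21 transcript, and copies and mitochondrial matches were found with blastn 2.17.0. Gene coordinates are from GENCODE M21 (GRCm38, the same assembly as mm10).

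The members, lists and markers were chosen with earlier results of these data known. Genes named by rule are, per complex, the 2 with the smallest p in each fit (mean counts of 10 or more), a set of central subunits, the subunit c genes, the tissue-restricted isoforms with Ndufa4l2, and for each other list the member with the smallest p in each fit. Other members named for their level, copies or call, Gm10175, Gm10231 and Gm10221, and the alternatives without the 3 share-rich libraries, with total-count scaling and within libraries split by the column-header suffix, were chosen after their values were seen. The results of 1 member are not reported here.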

Additional observations from a re-analysis of the deposited data

Results flagged for a closer look

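In 4 of 56 sets of 6 values examined, the highest or lowest library lay far from the rest of its genotype; chance gives about 1 such set in 20. Sgo1-/+ replicate 3 had a mitochondrial-like share of 37.7%, against 10.4% to 19.8% in the other Sgo1-/+ libraries. The same library had the lowest Atp5b level of its genotype, 591 CPM against 857 to 993 CPM. WT replicate 4 had 283 CPM of Atp5g3 against 123 to 167 CPM in the other WT libraries. Sgo1-/+ replicate 4 had 172 CPM of Cox5b against 193 to 201 CPM in the other Sgo1-/+ libraries.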

How the results depend on the processing

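For the genotype, 0 of 77 respiratory chain genes were called under every alternative run, including DESeq2, limma-voom, each library left out and the share as a covariate. Their median log2 change ran from -0.078 to 0.047 with a library left out and was 0.30 when scaled by total counts alone. That scaling, which gives all genes a positive median, also turned Atp5k (0.16), Cox4i1 (0.095), Cox8a (0.20), Ndufa2 (0.14), Ndufv3 (0.17), Sdha (0.22), Sdhd (0.32), Uqcrb (0.063) and Uqcrh (0.16) positive. Small changes crossed 0 elsewhere: Sdhd was 0.0029 with no filter and -0.084 to 0.092 with a library left out, Sdha was -0.17 to 0.0037 with a library left out, and among the 4 libraries with the suffix Ndufa2 was 0.28 and Sdhd 0.32.

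For the mitochondrial-like share, leaving out a library gave 16 to 31 calls (14 to 23 lower, 2 to 12 higher). There were 0 calls in either direction without the 3 share-rich libraries or among the 4 libraries with the suffix, and 2 calls, 2 lower and 0 higher, without the 2 libraries farthest from the median share. With no filter, 2 genes were called higher. By total counts alone, 70 genes were called, 70 lower and 0 higher, the median was -0.36, and the changes of Atp5k (-0.15), Cox6c (-0.020), Cox8a (-0.17) and Uqcr11 (-0.077) were negative. Among the 4 libraries with the suffix Cox5a was 0.021. The difference in share between genotypes was -11.7 to -5.14 points with a library left out and -5.52 points without the share-rich libraries. Part of the shift by total counts alone is built in, since those totals include the 3 mitochondrial-like rows. Otherwise the cause of these shifts was not tested.

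With the replicate number as a block, 0 genes were called for the share (0 lower, 0 higher) and 0 for the genotype. Same-numbered libraries correlated in their deviations by -0.30 to 0.45, and 0 of 6 numbers had the same number as closest partner, so the numbers were not taken to pair the samples. With 6 libraries per genotype and SEs of 0.081 to 0.33, the intervals of 2 SE reached -0.57 and 0.72 apart from Atp5g2. Larger changes can also go undetected, since Atp5g2, with a log2 change of 1.11, did not pass.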
